A study of Homo sapiens with 12 samples.

Results

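The aminoacyl-tRNA synthetase genes are 36 of the 35238 genes in the expression table. They were chosen by name and not by level, and 20 encode enzymes that serve the cytosol while 16 encode enzymes that serve the mitochondrion alone. All 36 were in the table under their older symbols (AARS for AARS1, and so on), and all 36 passed the filter on low values in every comparison. The cells were HK2 (HK-2), an established line of human kidney proximal tubule cells. Every culture was transfected with a short interfering RNA, either scrambled (SCR) or directed against POLR2A (siB), at 10 nM, and was kept for 24 hours in the vehicle DMSO or in aristolochic acid I (AAI) at 25 µM, a toxin of Aristolochia plants that forms DNA adducts. This gave 4 groups (SCR DMSO, SCR AAI, siB DMSO and siB AAI) of 3 poly(A) RNA libraries each. No untransfected cells were analysed here, so each group carries the transfection. The labels do not say that the 3 libraries of a group came from separate cultures, and p-values then measure only the spread between libraries.

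Each aminoacyl-tRNA synthetase joins an amino acid to its matching transfer RNA, using ATP, and so supplies the ribosome with charged tRNA. Cytosolic protein synthesis and mitochondrial protein synthesis use mostly separate synthetases, all encoded in the nucleus, while GARS and KARS each supply both compartments. Many cytosolic synthetase genes are known targets of the transcription factor ATF4 in the amino acid response, and the proximal tubule, a tissue rich in mitochondria, depends on the mitochondrial enzymes to make respiratory chain subunits.

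Promoter sequence was read for the members because ATF4 binds the C/EBP-ATF response element, whose core was searched as TGATGNAA on both strands in the RefSeq windows from 250 bases before to 50 bases after each gene's start. A window was available for 16 of the 20 cytosolic and 14 of the 16 mitochondrial genes. The core was found in 7 of the 16 cytosolic windows (43.8%; TARS, GARS, IARS, CARS, MARS, AARS and NARS), in 1 of the 14 mitochondrial windows (7.14%; YARS2) and in 4.46% of 27305 genes with a window. Pieces of 30 bases are shown, 5′ to 3′ along each gene, for AARS, which fell in siB cells with AAI, for TARS and GARS, which did not pass the test there, for YARS2, the mitochondrial gene with the core, and for WARS, which holds the core of the interferon-stimulated response element. Capitals mark the matched core on either strand.
AARS: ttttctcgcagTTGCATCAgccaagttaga
TARS: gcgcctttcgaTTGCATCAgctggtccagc
GARS: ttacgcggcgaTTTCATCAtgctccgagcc
YARS2: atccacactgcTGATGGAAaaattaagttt
WARS: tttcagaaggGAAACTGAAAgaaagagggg
On hg38 these pieces lie at chr16:70289675-70289704, minus strand (AARS), chr5:33440956-33440985, plus strand (TARS), chr7:30594834-30594863, plus strand (GARS), chr12:32756076-32756105, minus strand (YARS2) and chr14:100375383-100375412, minus strand (WARS). In AARS the first base of the core lies 187 bases before the start and in YARS2 197 bases before it, against 33 bases before it in GARS and at base 3 after it in TARS. In WARS, a gene known to be induced by interferon, the core begins 55 bases before the start. The interferon core was in 1 of 16 cytosolic windows, in 1 of 14 mitochondrial windows (EARS2) and in 4.38% of all. The E-box CACGTG was in 1 cytosolic (IARS) and 3 mitochondrial windows (MARS2, CARS2 and EARS2) against 8.78% of all, and the palindromic NRF1 core in no cytosolic and 1 mitochondrial window (MARS2) against 1.52% of all. The members are all expressed, so a closer background is 10615 genes with a window and a mean CPM (defined below) of at least 1, matched by symbol. Of these TGATGNAA was in 2.76% and the interferon core in 3.81%. The E-box was in 12.5% of them and the NRF1 core in 2.53%. A match is a string of letters and not a measured binding site.

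Depth ran from 15844015 to 42805294 reads per library. POLR2A, the target of siB, was measured at 258, 288 and 306 CPM in SCR DMSO and 138, 143 and 139 CPM in siB DMSO, and at 673, 719 and 729 CPM in SCR AAI and 266, 220.4 and 210.3 CPM in siB AAI, where CPM is a library's counts scaled to a fixed sum of 1000000. It was lower in siB cells in every library at matched treatment, although in DMSO limma's adjusted p was 0.505 and the log2 change -1.01 ± 0.13 (SE). Of 10 kidney epithelial markers, 9 had a mean CPM of at least 1, but of 11 proximal tubule markers 3 did, and LRP2, CUBN, AQP1 and HNF4A were below it. Of the markers of other cell types, 4 of 7 fibroblast, 1 of 5 endothelial and 3 of 6 immune genes reached a mean CPM of 1. The summed level of the endothelial markers was 1.21 to 2.59 CPM in the other 3 groups and 4.34 to 6.06 CPM in siB AAI, all endothelial markers but PECAM1 being under a mean of 1 CPM, while that of the kidney epithelial markers was 1815 to 2828 CPM in the other groups and 1558 to 1667 CPM in siB AAI. The fibroblast sum was 64.2 to 68.3 CPM in siB DMSO and 47.7 to 54.98 CPM in siB AAI, and the proximal tubule sum 170.6 to 193.8 CPM and 144.5 to 146.8 CPM, so that neither overlapped between these groups. The lists did not move as a whole. Of the proximal tubule genes at a mean of at least 1 CPM, GGT1 (means of 174.9 and 121 CPM) and SLC34A1 were lower in siB AAI, and SLC5A2 (5.11 and 16.8 CPM) was higher. Of those of fibroblasts, COL1A1 (30 and 12.1 CPM) and PDGFRB were lower, and LUM (31.6 and 34.1 CPM) and DCN were not. The part of these markers in the results was not tested. These are bulk libraries, so fewer cells of a kind and less RNA per cell cannot be told apart.

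SCR DMSO replicate 2 differed from the other libraries of its group, and not for the synthetases alone. Without it 13.6% of all genes tested were raised and 8.51% lowered with AAI in SCR cells, against 8.98% and 3.36% with it. In it 7 of the 20 cytosolic synthetases were over 2-fold lower than the mean of replicates 1 and 3 of its group, and 1 of the 16 mitochondrial genes was (IARS2). In all 10 cytosolic genes were lower in it and 10 higher. The share of all genes that deviated over 2-fold in it was not counted. EPRS, which charges both glutamate and proline tRNA, had 226, 45.3 and 193 CPM in the SCR DMSO libraries, and FARSA, the catalytic subunit of phenylalanyl-tRNA synthetase, had 61.1, 126 and 68 CPM. EPRS was thus low and FARSA high in replicate 2 alone. Of the 12 libraries, this library held the lowest value of 11 members and the highest of 9. Across members, Spearman's rho between transcript length and the deviation of this library was -0.28 (n = 36, same libraries, no test). For comparisons that use SCR DMSO, the counts of changed members and the class medians are given with and without it, while values of single genes include it unless stated.

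The cytosolic synthetases were mostly expressed at higher levels per length than the mitochondrial ones. Levels were divided by the length of the MANE transcript (the reference transcript of each gene) to compare genes, as CPM per kb averaged over the 4 groups. KARS, lysyl-tRNA synthetase, was highest at 112 CPM per kb, followed by MARS (methionyl) at 72.3, TARS (threonyl) at 66.9 and IARS (isoleucyl) at 63.7. The lowest cytosolic gene was FARSB, the other subunit of phenylalanyl-tRNA synthetase, at 5.62 CPM per kb against 58.8 for FARSA, and its reference transcript is 6.76 kb long against 1.81 kb. IARS2 (mitochondrial isoleucyl) at 49.2 CPM per kb lay among the cytosolic genes, while the next mitochondrial genes were CARS2 (cysteinyl) at 21.1, TARS2 (threonyl) at 17.1 and RARS2 (arginyl) at 16.5. EARS2 (glutamyl) at 4.16 and PARS2 (prolyl) at 2.81 were lowest. The 9 cytosolic genes next in order after MARS were close together, between 66.9 (TARS) and 50.4 CPM per kb (NARS). Summed over the class, cytosolic members took 2654 ± 192 CPM (SD, n = 3) in SCR DMSO, 2769 ± 325 in SCR AAI, 2583 ± 66.8 in siB DMSO and 2860 ± 184 in siB AAI. Mitochondrial members summed to 549.7 ± 62.9, 581 ± 64.5, 565 ± 21.3 and 528 ± 30.8 CPM in the same order. The cytosolic sum was 2681 to 3047 CPM over the siB AAI libraries and 2532 to 2659 CPM over the siB DMSO libraries, and the ranges of all other pairs of groups overlapped in both classes.

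**Figure D1:**
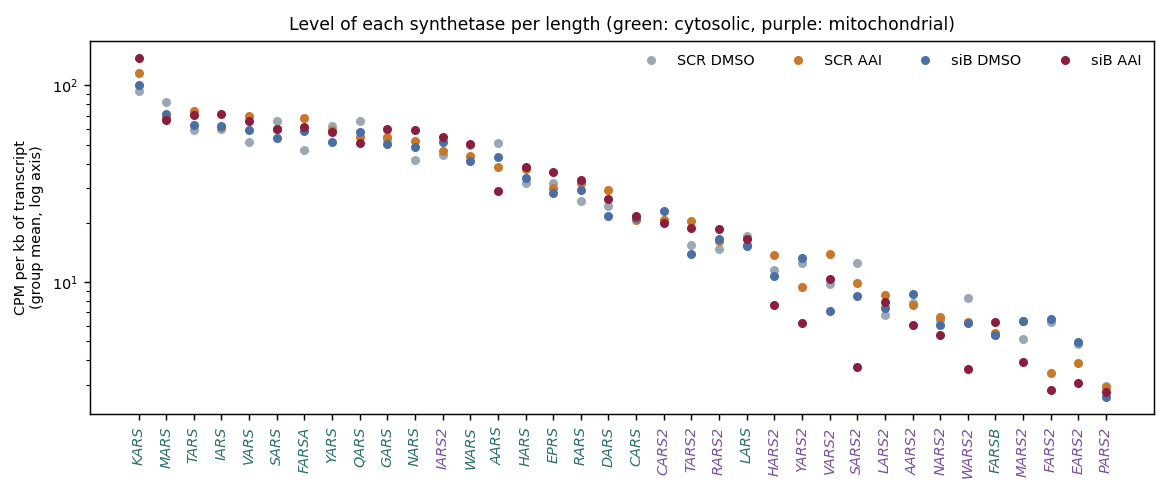
Level of each of the 36 synthetase genes (x axis, ordered by level) as CPM per kb of reference transcript on a log axis, each point being the mean of 3 libraries of a group. Cytosolic genes (green names) fill the upper end, led by KARS at 112 CPM per kb, and the siB AAI points (dark red) of SARS2, YARS2, WARS2 and HARS2 lie below those of the other groups.

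The comparison of AAI with DMSO within siB cells gave most of the calls among the members, and most of these were in the mitochondrial class. In all 13 of the 36 members were changed, beside 52.2% of 14928 genes tested. Of the 16 mitochondrial synthetases 8 were lowered and 2 raised at an adjusted p under 0.05, where 21.8% of all genes tested were lowered and 30.4% raised. Their median log2 change was -0.34, against 0.10 over all genes tested. Above a mean level of 5 CPM, where all 36 members lie, 24.2% were lowered and 23.8% raised. The groups did not overlap for 13 of the 16, against 60.8% of all genes. Adjusted p-values are limma's after Benjamini-Hochberg adjustment over the whole set of genes tested, and changes are differences of log2(CPM + 1) with their SE.

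SARS2, mitochondrial seryl-tRNA synthetase, had 15.4, 17 and 16.4 CPM in siB DMSO and 3.98, 7.94 and 9.43 CPM in siB AAI. Each AAI library lay below every DMSO library, and the log2 change was -1.16 ± 0.26 (adjusted p = 0.00428). FARS2, mitochondrial phenylalanyl-tRNA synthetase, had 10.1, 10.9 and 11.4 CPM in siB DMSO and 2.90, 5.26 and 6.06 CPM in siB AAI, again without overlap, with a change of -1.08 ± 0.23 (adjusted p = 0.00329). YARS2, mitochondrial tyrosyl-tRNA synthetase, had 27.6, 26.3 and 29.7 CPM in siB DMSO and 13.4, 12 and 13.9 CPM in siB AAI. Its AAI libraries were the most alike of these genes, and its change of -1.03 ± 0.14 had the lowest adjusted p of all 36 members (2.4e-04). These were the only members lowered by at least 2-fold, a size reached by 5.79% of all genes tested.

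The other lowered mitochondrial genes changed by less than 2-fold. WARS2 (tryptophanyl) fell from 17.3 ± 0.618 CPM (SD, n = 3) to 10.02 ± 1.78 CPM, a log2 change of -0.74 ± 0.16, and EARS2 fell from 25.6 ± 1.48 CPM to 15.8 ± 2.98 CPM, a change of -0.68 ± 0.16. MARS2 (methionyl), a gene of a single exon, fell from 19.2 ± 1.06 CPM to 11.8 ± 2.85 CPM (-0.68 ± 0.18), its 3 AAI libraries ranging from 9.51 to 15 CPM. AARS2 (alanyl) and HARS2 (histidyl) fell by smaller amounts, with changes of -0.51 ± 0.12 and -0.47 ± 0.13. Adjusted p-values of these 5 ran from 0.00425 (WARS2) to 0.0127 (HARS2).

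Against the direction of the other changed mitochondrial genes, VARS2 and TARS2 were higher with AAI in siB cells. VARS2 (valyl) rose from 25.5 ± 2.82 CPM to 37 ± 4.58 CPM, a log2 change of 0.52 ± 0.15 (adjusted p = 0.014). TARS2 (threonyl) rose from 38 ± 1.10 CPM to 51.1 ± 2.24 CPM, a change of 0.42 ± 0.11 (adjusted p = 0.0104). The remaining 6 did not pass: CARS2 was at -0.21, NARS2 (asparaginyl) at -0.16, LARS2 (leucyl) at 0.08, PARS2 at 0.08, IARS2 at 0.10 and RARS2 at 0.17 on the log2 scale. For LARS2 the 95% interval was -0.32 to 0.47 and for IARS2 -0.20 to 0.40, so changes of the size seen for AARS2 lay outside both. When all 4 groups entered the fit, 7 of the 16 were changed, and HARS2, TARS2 and VARS2 no longer passed. Of 15325 genes tested in that fit, 3177 were raised and 2103 lowered. HARS2 was also lost without siB DMSO replicate 3, VARS2 without siB AAI replicate 3 and TARS2 with size factors, while AARS2, EARS2, FARS2, MARS2, SARS2, WARS2 and YARS2 passed under every alternative run other than the 2-fold limit.

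**Figure D2:**
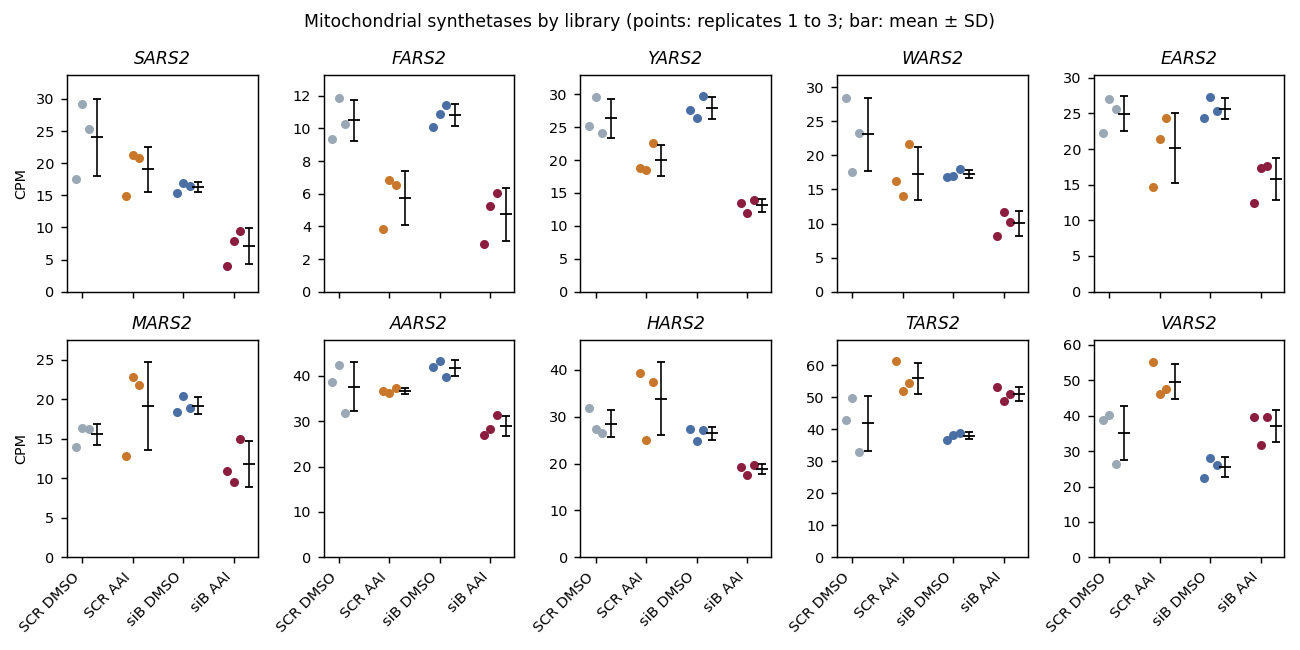
CPM in each of the 12 libraries for the 10 mitochondrial synthetases changed by AAI in siB cells, points being replicates 1 to 3 of each group and bars the mean ± SD. In the 8 lowered genes all 3 siB AAI libraries lie below all 3 siB DMSO libraries, and in TARS2 and VARS2 they lie above them.

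Of the 20 cytosolic synthetases, 2 were raised and 1 lowered by AAI in siB cells, beside 30.4% and 21.8% of all genes tested, and the class median was 0.17 on the log2 scale. AARS, alanyl-tRNA synthetase, had 145, 163 and 139.9 CPM in siB DMSO and 99.2, 94.7 and 107 CPM in siB AAI. All 3 AAI libraries were lower, and AARS fell (log2 change -0.57 ± 0.11, adjusted p = 0.00176). KARS, which supplies both compartments, had 199, 198 and 202 CPM in siB DMSO and 264, 271 and 291 CPM in siB AAI. KARS rose by 0.46 ± 0.09 (adjusted p = 0.00245), and every AAI library lay above every DMSO library. WARS, tryptophanyl-tRNA synthetase, had 105, 114 and 109 CPM in siB DMSO and 127, 129.8 and 142 CPM in siB AAI, without overlap, and rose by 0.28 ± 0.10 (adjusted p = 0.0367).

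The other 17 cytosolic genes did not pass. GARS, glycyl-tRNA synthetase, the other enzyme of both compartments, had 126, 121 and 123 CPM in siB DMSO and 135, 148 and 153 CPM in siB AAI, a log2 change of 0.24 ± 0.10 (adjusted p = 0.0644), although its groups did not overlap. Close to the threshold were also NARS (asparaginyl; 0.28), DARS (aspartyl; 0.28) and EPRS (0.39), with adjusted p-values of 0.0605, 0.0719 and 0.0942. MARS was at -0.10, QARS (glutaminyl) at -0.19, CARS (cysteinyl) at 0.03 and FARSA at 0.05. The remaining 9, namely IARS, FARSB, HARS (histidyl), TARS, YARS (tyrosyl), RARS (arginyl), VARS (valyl), SARS (seryl) and LARS (leucyl), lay between 0.12 and 0.20. AARS and KARS passed under every alternative run other than the 2-fold limit, and WARS did not. Its call was lost with size factors (adjusted p = 0.253, the highest), without the variance trend, with all 4 groups in the fit, and without any single siB DMSO library or siB AAI replicate 2 or 3. The count depended on the libraries. Without siB DMSO replicate 1, 8 cytosolic genes were changed (AARS lowered, and DARS, EPRS, IARS, KARS, LARS, NARS and TARS raised). Of all 14784 genes tested in that run, 5186 were raised and 3119 lowered. Without siB AAI replicate 1, 6 cytosolic genes were changed (AARS lowered, and FARSB, GARS, KARS, WARS and YARS raised). Of all 13659 genes tested in that run, 2957 were raised and 3320 lowered. Median-ratio size factors moved the median of all genes from 0.10 to -0.01. With them AARS and QARS were lowered and KARS raised, beside 4024 lowered and 4016 raised of 14928 genes.

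Among the 7 cytosolic genes whose window holds the TGATGNAA core, AARS alone passed the test in siB cells with AAI, and the other 6 lay between -0.10 (MARS) and 0.28 (NARS). YARS2, the mitochondrial gene with the core, fell, as did 7 mitochondrial genes whose core was not found or whose window was not available.

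**Figure D3:**
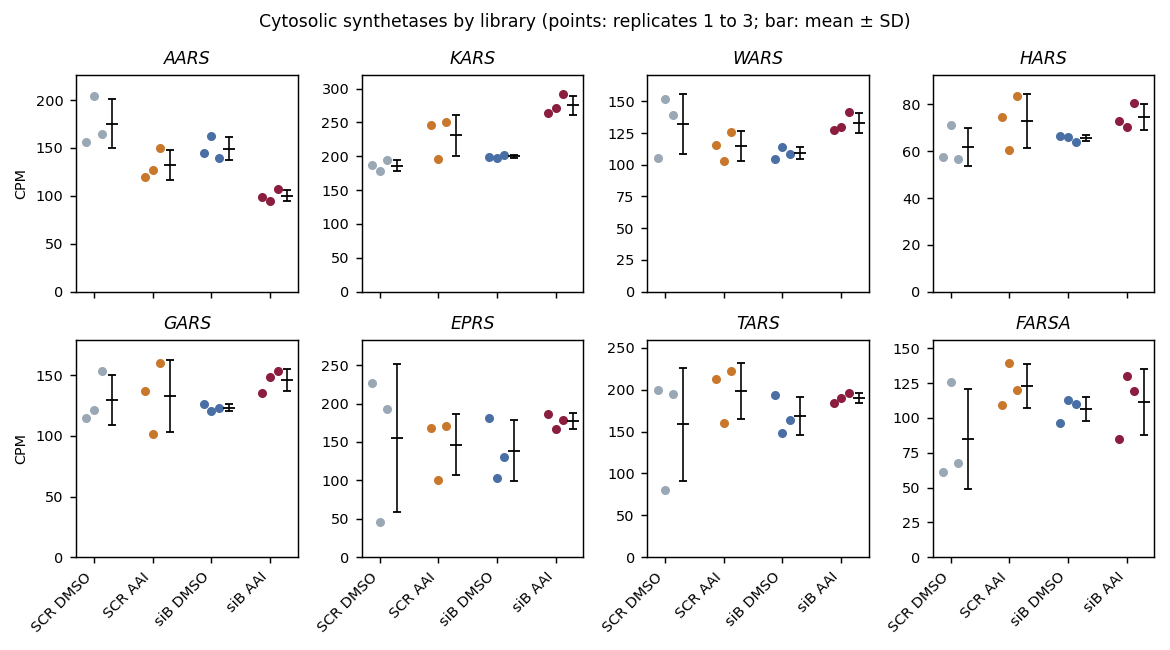
CPM in each of the 12 libraries for 8 cytosolic synthetases, points being replicates 1 to 3 of each group and bars the mean ± SD. AARS is lower and KARS and WARS higher in siB AAI than in siB DMSO without overlap, and in SCR DMSO replicate 2 (middle gray point) EPRS and TARS are low and FARSA high.

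The same comparison in SCR cells asks what AAI does where POLR2A was not targeted. None of the 36 synthetases was called changed, beside 12.3% of 14228 genes tested by limma. At an unadjusted p under 0.05 there was 1 (FARS2), beside 3841 of the 14228 genes. Voom on the recovered reads also called 0 of the 36. The median log2 change was 0.07 for cytosolic and 0.04 for mitochondrial members, against 0.18 for all genes tested. Size factors moved these medians to -0.13, -0.15 and -0.01, so the direction of the class medians depends on the scaling. Groups did not overlap for 2 cytosolic and 4 mitochondrial members, against 33.8% of all genes.

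FARS2 was the member farthest from 0, with 9.38, 11.9 and 10.3 CPM in SCR DMSO and 3.86, 6.84 and 6.54 CPM in SCR AAI. The groups did not overlap, and the log2 change was -0.80 ± 0.28 (adjusted p = 0.113). With all 4 groups in the fit FARS2 was lowered. FARSA and VARS2 lay highest, at 0.59 ± 0.30 and 0.51 ± 0.25. Without SCR DMSO replicate 2 the medians were -0.04 (cytosolic), -0.01 (mitochondrial) and 0.07 (all genes), FARSA and VARS were raised and no member was lowered, where 13.6% of all genes were raised and 8.51% lowered.

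For the genes that moved in siB cells, the SCR values were as follows. YARS2 had 25.2, 29.6 and 24.1 CPM in SCR DMSO and 18.7, 18.5 and 22.6 CPM in SCR AAI, a change of -0.38 ± 0.23 (adjusted p = 0.337). SARS2 had 17.5, 29.2 and 25.3 CPM in SCR DMSO and 15, 21.2 and 20.9 CPM in SCR AAI, groups that overlapped, and its change was -0.31 ± 0.29, or -0.16 without SCR DMSO replicate 2. AARS had 156, 204 and 165 CPM in SCR DMSO and 119.5, 127 and 150.1 CPM in SCR AAI, and the AAI libraries were all lower, though the change of -0.40 ± 0.21 did not pass (adjusted p = 0.263). KARS had 186, 178 and 194 CPM in SCR DMSO and 246, 196 and 249.9 CPM in SCR AAI, at 0.30 ± 0.19 (adjusted p = 0.363). WARS had 106, 152 and 139 CPM in SCR DMSO and 116, 103 and 126 CPM in SCR AAI, and its groups overlapped.

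Nearest to 0 among the cytosolic genes were GARS and CARS. GARS had 115, 121 and 153 CPM in SCR DMSO and 137, 101 and 160.2 CPM in SCR AAI (95% interval of the change -0.54 to 0.58). CARS had 48.9, 66 and 59.97 CPM in SCR DMSO and 55.2, 52.9 and 62.2 CPM in SCR AAI (-0.53 to 0.47). Among the mitochondrial genes these were PARS2 and CARS2. PARS2 had 7.76, 7.69 and 5.44 CPM in SCR DMSO and 6.85, 7.79 and 6.11 CPM in SCR AAI (-0.58 to 0.58), and CARS2 had 31.9, 38.4 and 43.3 CPM and 32, 42.3 and 39.97 CPM in these groups (-0.53 to 0.55). In each of the 4 the groups overlapped, and all 4 intervals hold the value of AARS in SCR cells (-0.40).

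**Figure D4:**
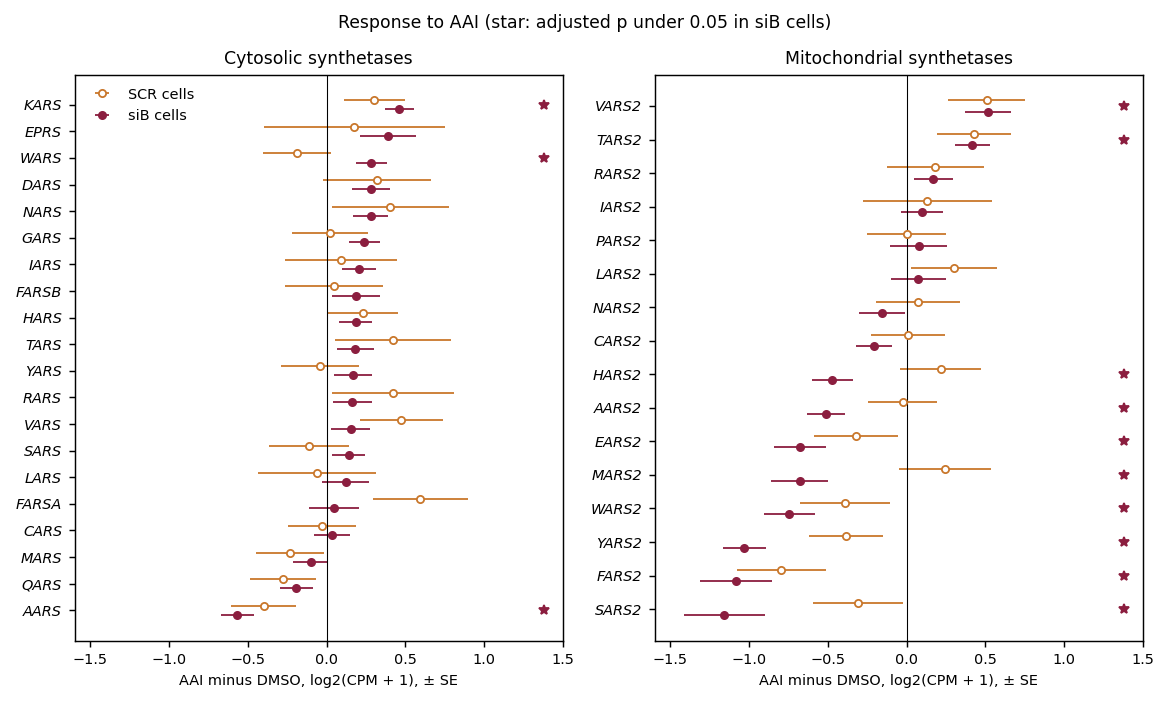
Difference between AAI and DMSO in log2(CPM + 1), with its SE, for 20 cytosolic (left) and 16 mitochondrial (right) synthetases in SCR cells (open, orange) and siB cells (filled, dark red), genes being ordered by the change in siB cells. Stars mark the 3 cytosolic and 10 mitochondrial genes at an adjusted p under 0.05 in siB cells, and no gene passed in SCR cells.

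The comparison of siB with SCR cells, both in AAI, asks how knockdown of POLR2A bears on the synthetases in injured cells. Of the 36 members 2 were changed, beside 9.28% of all genes. Both were among the 16 mitochondrial genes and were lowered, beside 3.79% lowered and 5.49% raised among 14946 genes tested. Of the 20 cytosolic genes none was changed in limma's test, with 1 (AARS) at an unadjusted p under 0.05 and 0 called by voom. At that unadjusted p there were also 6 mitochondrial genes, and 3814 of all genes tested. The median log2 difference was -0.30 for mitochondrial and 0.05 for cytosolic members, against 0.00 for all genes. In siB cells 14 of the 16 mitochondrial and 8 of the 20 cytosolic genes were lower, beside 7433 of the 14946 genes tested. Groups did not overlap for 7 mitochondrial and 3 cytosolic members, against 30.8% of all genes.

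SARS2 had 15, 21.2 and 20.9 CPM in SCR AAI and 3.98, 7.94 and 9.43 CPM in siB AAI. Every siB library was lower, and SARS2 was lowered, with a log2 difference of -1.35 ± 0.27 (adjusted p = 0.0109), the only member past 2-fold, beside 0.629% of all genes lowered that far. HARS2, mitochondrial histidyl-tRNA synthetase, had 39.3, 24.9 and 37.4 CPM in SCR AAI and 19.2, 17.5 and 19.7 CPM in siB AAI, without overlap, and was lowered, at -0.79 ± 0.20 (adjusted p = 0.0299). WARS2 at -0.73 ± 0.22, MARS2 at -0.63 ± 0.25 and YARS2 at -0.57 ± 0.18 came next and did not pass, with adjusted p-values of 0.0556, 0.131 and 0.074. FARS2 was at -0.25 with overlapping groups. The highest mitochondrial gene was IARS2 at 0.29, and the cytosolic genes ran from -0.39 (AARS) to 0.31 (EPRS).

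Replicate numbers paired the libraries in this comparison by the rule given in the methods, though replicates 2 and 3 were weakly told apart by it. With the replicate number as a block 6 mitochondrial genes were lowered (HARS2, MARS2, SARS2, VARS2, WARS2 and YARS2) and 1 cytosolic gene (AARS) was, where 13.8% of all genes were lowered and 15.2% raised. With size factors 3 mitochondrial genes were lowered, WARS2 being added at an adjusted limma p of 0.0498, beside 648 of 14946 genes lowered. Single libraries also decided the calls. Without SCR AAI replicate 3 no member passed, without SCR AAI replicate 2 HARS2 alone did, and leaving out each of the 3 siB AAI libraries in turn left SARS2 alone. Without SCR AAI replicate 1, which had the lowest SARS2 and MARS2 levels of its group, HARS2, MARS2, SARS2 and WARS2 passed. Of 14834 genes tested in that run, 797 were lowered and 1317 raised.

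HARS and HARS2 stand head to head on chromosome 5. HARS (chromosome 5, 140673035 to 140691537, minus strand) and HARS2 (chromosome 5, 140691430 to 140699305, plus strand) have reference starts 85 bases apart and overlap each other, and the strand setting of the counting is not stated. In SCR cells HARS had 57.3, 71.1 and 56.7 CPM with DMSO and 74.5, 60.5 and 83.4 CPM with AAI, and in siB cells 66.6, 65.9 and 64.1 CPM with DMSO and 73.1, 70.2 and 80.8 CPM with AAI. The siB groups did not overlap, and all other pairs of groups did. HARS2 had 31.8, 27.3 and 26.5 CPM in SCR DMSO and 27.4, 24.9 and 27.2 CPM in siB DMSO. With AAI in siB cells HARS lay at 0.18 ± 0.11 and did not pass (adjusted p = 0.17), while HARS2 fell, at -0.47 ± 0.13. In siB against SCR cells in AAI, HARS lay at 0.05 ± 0.17 and HARS2 at -0.79 ± 0.20. The difference between both genes' changes was not tested. Other changed members that overlap a protein-coding neighbor in the annotation are AARS (DDX19B), KARS (TERF2IP), WARS (WDR25), AARS2 (TMEM151B and an unnamed gene), EARS2 (GGA2 and UBFD1), YARS2 (DNM1L) and SARS2, which lies within a readthrough gene, and reads shared with these cannot be told apart.

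In DMSO the knockdown gave no call among the members. None of the 36 passed, beside 0% of 13606 genes tested in limma, where 644 genes and no member were at an unadjusted p under 0.05 and voom called 0. The medians were 0.03 (cytosolic), 0.04 (mitochondrial) and 0.06 (all genes), and groups did not overlap for 1 cytosolic (KARS) and 2 mitochondrial members (SARS2 and MARS2), against 11.9% of all genes. SARS2 was farthest from 0, at -0.51 ± 0.23 with a 95% interval of -1.06 to 0.04. The 95% interval lay within 2-fold in both directions for 29 of the 36 members. Without SCR DMSO replicate 2 no member passed either, with medians of -0.10, -0.02 and -0.04 in the same order.

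The interaction of siRNA and AAI, the test of whether AAI acted differently in siB and SCR cells, passed for none of the 36 members, beside 1.61% of 15325 genes in limma. At an unadjusted p under 0.05 there were 4 mitochondrial members and no cytosolic one, beside 2032 of the 15325 genes. Voom called 0 genes in all. The largest was MARS2 at -0.92 ± 0.33 (adjusted p = 0.229). In SCR cells MARS2 had 14, 16.4 and 16.3 CPM with DMSO and 12.8, 22.8 and 21.8 CPM with AAI, and in siB cells 18.3, 20.4 and 18.9 CPM with DMSO and 10.9, 9.51 and 15 CPM with AAI. Thus 2 of 3 AAI libraries lay above all DMSO libraries in SCR cells and all 3 lay below them in siB cells. The interaction was negative for 14 of 16 mitochondrial members (median -0.26) and 8 of 20 cytosolic members (median 0.10). Among all genes it was negative for 8619 of 15325 (median -0.06). Without SCR DMSO replicate 2 these medians were -0.25, 0.19 and 0.06, and no member passed. The calls of the 10 mitochondrial genes in siB cells are therefore not shown to be particular to siB cells. Spearman's rho between the log2 changes with AAI in SCR and in siB cells was 0.61 over the 36 members. It was 0.38 over the 20 cytosolic and 0.76 over the 16 mitochondrial genes (a description, no test).

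The classes diverged in the siB AAI libraries. Each member's log2(CPM + 1) was set against its own mean over the 12 libraries and averaged over a class. The mitochondrial average minus the cytosolic average was -0.35, -0.39 and -0.29 in the siB AAI libraries and between -0.06 and 0.34 in the 9 others, the highest being SCR DMSO replicate 2. The mitochondrial average was -0.37, -0.29 and -0.11 in siB AAI libraries 1, 2 and 3, and the cytosolic average was -0.02, 0.09 and 0.17. These averages describe chosen members and carry no test.

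**Figure D5:**
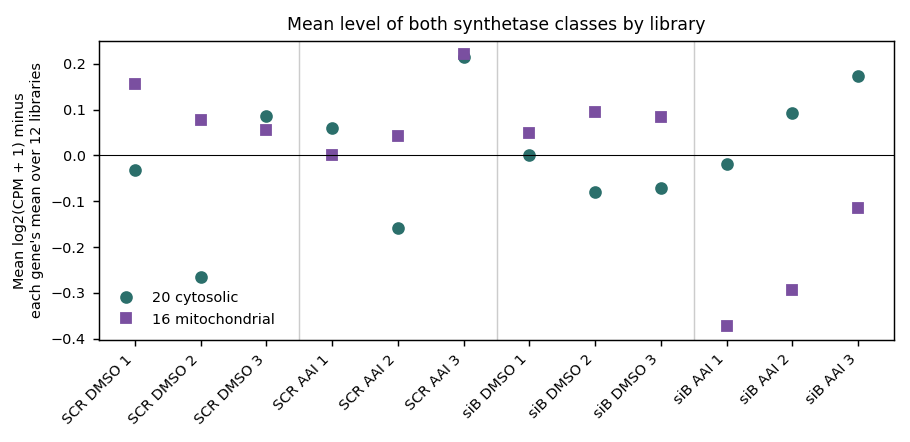
Mean of log2(CPM + 1) relative to each gene's own mean over 12 libraries, averaged over the 20 cytosolic (circles) and 16 mitochondrial (squares) synthetases, for each library of the 4 groups. The mitochondrial average lies 0.29 to 0.39 below the cytosolic one in the 3 siB AAI libraries, and SCR DMSO replicate 2 has the lowest cytosolic average (-0.26).

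For 13 amino acids the members hold 1 mitochondrial and 1 cytosolic gene that share a name apart from the final digit, which allows a comparison within the amino acid. With AAI in siB cells the log2 change of the mitochondrial gene was below that of its cytosolic partner in 9 of 13 pairs, with a median difference of -0.24. Among these 13 the widest gaps were for serine (SARS2 -1.16, SARS 0.14), tyrosine (YARS2 -1.03, YARS 0.17) and tryptophan (WARS2 -0.74, WARS 0.28). For alanine both genes fell by like amounts (AARS2 -0.51, AARS -0.57), and for threonine and valine the mitochondrial gene lay higher. Not among the 13 are phenylalanine, whose cytosolic enzyme has a pair of subunits (FARS2 -1.08, FARSA 0.05, FARSB 0.19), and glutamate and proline, which share EPRS in the cytosol (EARS2 -0.68, PARS2 0.08, EPRS 0.39). In siB against SCR cells in AAI the mitochondrial gene was lower in 10 of 13 pairs (median -0.33), in SCR cells with AAI in 6 of 13 (median 0.01) and in siB against SCR cells in DMSO in 7 of 13 (median -0.10). Without SCR DMSO replicate 2 the last pair of counts became 8 of 13 (median -0.04) and 5 of 13 (median 0.10). These comparisons share groups of libraries and are not independent.

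Class I and class II synthetases, the structural families of these enzymes, differ in the fold of their catalytic domain. With AAI in siB cells, 4 of 9 mitochondrial class I genes were lowered and 1 raised, as were 4 and 1 of 7 class II genes, with medians of -0.21 and -0.47, beside 21.8% of all genes lowered and 30.4% raised. The 8 enzymes of the cytosolic multisynthetase complex (DARS, EPRS, IARS, KARS, LARS, MARS, QARS and RARS) had a median of 0.18 with 1 raised, and the 12 outside it a median of 0.17 with 1 raised and 1 lowered, beside the same shares. By gene span, 16 members were short (under 30 kb), 16 medium and 4 long (over 100 kb). FARS2, which spans 568 kb on chromosome 6, and WARS2, which spans 109 kb on chromosome 1, were the long genes that fell with AAI in siB cells, while LARS2 and NARS2 did not pass. Spearman's rho between span and log2 change was -0.26 in SCR cells with AAI, 0.06 in siB cells with AAI and 0.33 for siB against SCR cells in AAI (n = 36, the same libraries, given as a description). Without SCR DMSO replicate 2 the value in SCR cells with AAI was -0.56. Mean CPM and the change with AAI in siB cells had a rho of 0.55 over the 36 members and 0.59 over the 16 mitochondrial ones.

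Among the genes for the scaffold proteins that hold the multisynthetase complex together, the RNA of AIMP1 and AIMP2 changed in opposite directions. AIMP1 rose with AAI in siB cells, from 29.8 ± 4.83 CPM to 44.2 ± 2.12 CPM (log2 change 0.56 ± 0.14, adjusted p = 0.00788). AIMP2 fell, from 43.3 ± 3.38 CPM to 20.6 ± 4.36 CPM (-1.05 ± 0.17, adjusted p = 7.6e-04), and was also lower in siB than in SCR cells in AAI (-0.67 ± 0.19, adjusted p = 0.0484). That last call was lost under 10 of 14 alternatives, among them size factors and the removal of any single siB AAI library or of SCR AAI replicate 2 or 3, and the call of AIMP1 was lost with all 4 groups in the fit. EEF1E1 lay at -0.06 and -0.35 in these comparisons and did not pass. The list of tRNA charging partners, which includes the scaffold genes, held 19 tested genes. Of them 6 were raised and 4 lowered with AAI in siB cells, beside 30.4% and 21.8% of all genes, with a median of -0.08. The 3 largest changes were AIMP2, EEF1A2 (an elongation factor that carries charged tRNA to the ribosome; -1.02) and DTD1 (a proofreading deacylase; -0.99). In SCR cells DTD1 was lowered (-1.17, adjusted p = 0.0256) as 1 of the 19 genes, beside 3.36% of all genes. The count was 3 with the replicate block (beside 6.4%), with size factors, with all 4 groups in the fit and without SCR DMSO replicate 2 (beside 8.51%), EEF1A2 being among them each time, and it was 0 without any single SCR AAI library. DTD1 did not pass without SCR DMSO replicate 3, where EEF1A2 did.

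Genes of the amino acid response, the pathway through which ATF4 raises synthetases, did not move one way. Of 34 tested, 4 were raised and 1 lowered with AAI in SCR cells (beside 8.98% and 3.36% of all genes), and 6 raised and 13 lowered with AAI in siB cells (beside 30.4% and 21.8%), with medians of 0.15 and -0.11. The SCR count of raised genes depended on the processing: it was 8 without SCR DMSO replicate 2, 6 with the replicate block or all 4 groups in the fit, 2 with voom, 1 with size factors, 1 without SCR DMSO replicate 1 or 3 or SCR AAI replicate 2, and 0 without SCR AAI replicate 1 or 3, and at most 1 was lowered in each. In siB cells 3 to 8 were raised and 7 to 13 lowered over 14 alternatives. In SCR cells ATF3, a stress-induced transcription factor, rose by 1.52 ± 0.21 and PPP1R15A, which directs dephosphorylation of eIF2α, by 1.36 ± 0.32, while VLDLR, a lipoprotein receptor, was lowered (-1.30 ± 0.35). In siB cells ATF3 rose by 2.05 ± 0.15 and DDIT4, an inhibitor of mTORC1 signaling, and VLDLR were lowered (-2.04 ± 0.15 and -1.61 ± 0.13). ATF4 had 290, 487 and 378 CPM in SCR DMSO and 294, 311 and 294 CPM in siB DMSO. With AAI it had 505, 509 and 602 CPM in SCR cells, above every SCR DMSO library, and 232, 297 and 283 CPM in siB cells. Among the AAI libraries those of siB were all lower, and ATF4 was lowered for siB against SCR in AAI, at -0.99 ± 0.16 (adjusted p = 0.00433). In that comparison 6 of the 34 were lowered and 1 raised (beside 3.79% and 5.49% of all genes), with a median of -0.26. With the replicate block, 13 were lowered and 4 raised (beside 13.8% and 15.2%), and without single libraries 1 (without SCR AAI replicate 3) to 11 (without SCR AAI replicate 1) were lowered. Besides ATF4 the largest were DDIT4 (-1.43) and PSAT1, an enzyme of serine synthesis, which was higher in siB cells (1.09). PSAT1 also lay higher in siB cells in DMSO, with 13.7, 16.4 and 14.6 CPM in SCR DMSO and 52.4, 49.9 and 54 CPM in siB DMSO, a log2 difference of 1.74 ± 0.16 that did not pass (adjusted p = 0.257). DDIT3 and ASNS, known ATF4 targets, did not pass in any of the 4 comparisons, with log2 changes of 0.75 and -0.17 with AAI in SCR cells and 0.27 and 0.29 in siB cells, although DDIT3 passed in SCR cells without SCR DMSO replicate 2 and with all 4 groups in the fit. In DMSO none of the 34 passed for siB against SCR cells in limma, and voom called 0. There 5 were at an unadjusted limma p under 0.05, beside 644 of 13606 genes. With all 4 groups in the fit 1 of the 34 was raised, beside 5 of 15325 genes tested, and no other alternative gave a call.

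WARS was also read beside the interferon response, since interferon is known to induce it. Of 13 interferon genes tested, 2 were raised and 6 lowered with AAI in siB cells, beside 30.4% and 21.8% of all genes, with a median of -0.20, and WARS rose there. Over 14 alternatives 0 to 3 were raised and 2 to 6 lowered. Among them GBP2, a guanylate-binding protein, fell (-1.35 ± 0.33), and GBP4, of the same family, rose (1.79 ± 0.23). With AAI in SCR cells 1 was raised (TAP1, a peptide transporter, 0.97 ± 0.21), with a median of 0.17 and beside 8.98% of all genes, and WARS lay at -0.19 ± 0.22. Without SCR DMSO replicate 2, 2 were raised and 4 lowered (beside 13.6% and 8.51%), with the replicate block 2 and 2 (beside 14.7% and 6.4%), with size factors 0 and 1, and without any single SCR AAI library none of either. For siB against SCR cells in AAI, GBP4 was raised (1.10 ± 0.23), 4 genes were also lowered with the replicate block, and WARS lay at 0.21 ± 0.15 without passing, though its groups did not overlap.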

How the data were processed

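Poly(A) RNA was sequenced from 12 libraries in 4 groups of 3. Per the study's methods, the authors used BioJupies to align paired-end reads (hg38) and quantify genes of the UCSC annotation. The aligner and strand setting are not given in the sources used here. The authors deposited log10 values, log10 of CPM plus 1, for 35238 genes. Columns name the siRNA with A for AAI or D for DMSO and a replicate number, and the groups follow the sample titles, since a treatment label reads DMSO throughout.

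CPM was recovered, and at least 99.99% of values were within 0.01 of a whole read. Linear models of log2(CPM + 1) were fitted with limma 3.58.1 (R 4.3.3; moderated variances with an intensity trend) to each pair of groups separately. Genes needed 1 CPM or more in 3 or more of the libraries fitted, and changes were called at a Benjamini-Hochberg adjusted p under 0.05. The interaction was fitted over all 4 groups. The fit was tested on simulated data. A count of 0 allows 0.0701 to 0.189 CPM (3 reads), for counting error only. Positions and MANE transcript lengths came from GENCODE release 44, promoter windows from RefSeq (GRCh38.p14).

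Same-numbered libraries were checked for pairing by correlating their deviations from group means over 15325 genes, and were taken as paired where every correlation exceeded 0.1. They were 0.422, 0.473 and 0.338 for AAI in SCR cells and 0.614, 0.318 and 0.292 for siB against SCR in AAI (paired), 0.21, 0.026 and 0.195 for AAI in siB cells and 0.726, 0.587 and -0.193 for siB against SCR in DMSO (not paired). Some libraries of different number also exceeded 0.1 in the comparisons taken as paired. For siB against SCR in AAI, replicates 2 and 3 reached 0.215 and 0.224 with each other, so their pairing is weakly set. For AAI in SCR cells, SCR DMSO replicate 1 and SCR AAI replicate 3 reached 0.159. The pairing comes from the data, not from the labels.

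The members and lists were chosen with earlier results of these data known. All members are named. Values in every library are given for up to 4 cytosolic and 3 mitochondrial members with the largest called change per comparison, 2 of each class nearest 0 in SCR cells with AAI, HARS, HARS2, WARS, GARS, KARS and the member with the largest interaction. Of each list up to 3 called genes with the largest changes are named per comparison, plus ATF4, DDIT3, ASNS, AIMP1, AIMP2, EEF1E1 and POLR2A. Some genes that this rule would name are not reported here. EPRS and FARSA were picked after their values were seen. Tried as alternatives were voom on the reads, size factors by median ratio, the replicate number as a block, a joint fit of the 4 groups, no variance trend, a pseudocount of 0.1, a floor of 5 CPM on the mean, no floor, a 2-fold limit, and each library left out.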

Additional observations from a re-analysis of the deposited data

How the results depend on the processing

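The lowest group mean of a member was 4.74 CPM (FARS2 in siB AAI), above the 3-read limit of every library, and with 3 libraries a group the spread between libraries sets the precision. Members that overlap another protein-coding gene (among them HARS, HARS2, MARS, KARS, YARS, AARS, WARS, AARS2, CARS2, EARS2, YARS2 and SARS2, which lies in a readthrough gene) are uncertain, because reads shared with the neighbor cannot be told apart when the strand setting is not stated. The cause of the differences between settings was not tested, except that the 2-fold limit only adds a size.

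For AAI in SCR cells, all 4 groups in the fit gave 1 changed mitochondrial gene (FARS2), and leaving out single libraries gave 0 to 2 cytosolic genes and 0 mitochondrial ones, the 2 without SCR DMSO replicate 2. For AAI in siB cells, the 2-fold limit left 0 cytosolic and 3 mitochondrial genes, and leaving out single libraries gave 2 to 8 cytosolic and 9 to 10 mitochondrial genes. For siB against SCR in AAI, the replicate block gave 1 cytosolic and 6 mitochondrial genes, size factors gave 3 mitochondrial genes, no filter left 1 mitochondrial gene, the 2-fold limit left 1, and leaving out single libraries gave 0 cytosolic and 0 to 4 mitochondrial genes. For siB against SCR in DMSO and for the interaction, leaving out single libraries gave 0 in both classes. With the replicate block in the other comparisons, EPRS was added in siB cells with AAI and no other count of either class moved.

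Over all single-gene results of the 36 members, 22 passed the threshold under an alternative but not as reported, 21 the reverse, and 2657 kept their side of it. No called member changed sign under any alternative run. Among members not called, the sign changed under at least 1 alternative for 18 of 36 with AAI in SCR cells, 5 with AAI in siB cells, 15 for siB against SCR in AAI, 16 in DMSO and 16 for the interaction.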

Other observations

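Several members share a promoter region with a gene on the other strand, with reference starts under 1000 bases apart, and the values of those neighbors with AAI in siB cells are given here (adjusted p from limma). UBFD1, 377 bases from EARS2, rose by 0.63 ± 0.10 on the log2 scale (adjusted p = 8.1e-04) while EARS2 fell by 0.68. TERF2IP, 108 bases from KARS and part of the telomere-protecting complex, rose by 1.09 ± 0.13 (adjusted p = 1.2e-04), and KARS rose as well. S100PBP, 295 bases from YARS, rose by 0.84 ± 0.16 (adjusted p = 0.0019), and YARS did not pass. LYRM4, 563 bases from FARS2 and a partner in iron-sulfur cluster assembly, lay at -0.36 ± 0.18 (adjusted p = 0.118). MRPS12, a mitochondrial ribosomal protein gene 181 bases from SARS2, lay at -0.20 ± 0.22 (adjusted p = 0.483). ORC3, a subunit of the origin recognition complex 148 bases from RARS2, lay at -0.20 ± 0.16 (adjusted p = 0.297). For siB against SCR in AAI none of these 6 neighbors passed, their log2 differences lying between -0.33 (LYRM4) and 0.24 (TERF2IP and UBFD1), where SARS2 was at -1.35. The neighbors were chosen by position alone, and the differences between neighbors' changes were not tested.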
